A study of Rattus norvegicus with 17 samples.

Results

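Cyp1a1 and Cyp1b1 are members of the CYP1 family of cytochrome P450 enzymes. They were taken up together because their RNA had moved in opposite directions between SNx and NoOp rat kidneys, and they are 2 of the 23487 genes listed in the deposited tables (Cyp1a1, ENSRNOG00000019500, and Cyp1b1, ENSRNOG00000040287). The measurements used to pick them are the same SNx and NoOp levels given here, so those levels are a description and carry no test. Kidney RNA was sequenced from 12 rats labelled SNx and 5 rats labelled NoOp, 1 library per rat. SNx stands for sub-total nephrectomy, in which the left kidney is taken out after an earlier operation has cut away part of the right one. It leaves a remnant that fails over weeks. The study's animals were male rats of the Wistar Han strain. NoOp is the label of the control kidneys, which the labels also call healthy and the study's methods call sham-operated. SNx rats were killed on different days, and the study states that most of its SNx rats never reached its disease threshold. The labels do not say which these are, so the stage of each SNx kidney is unknown. Ages were not given in the sources used here, and no transgene or drug is named for either group. The study reports RNA integrity for the samples together, with a wide range, and not for single libraries.

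The CYP1 enzymes oxidise polycyclic aromatic hydrocarbons, oestrogens and fatty acids. Their best known regulator is the aryl hydrocarbon receptor (AhR), a transcription factor held in the cytoplasm until a ligand such as a dioxin, a dietary indole or a tryptophan metabolite binds it. It then moves to the nucleus, pairs with ARNT and binds xenobiotic response elements near its target genes, and Cyp1a1 is the target most often used as a readout of it. Cyp1a1 is best known from epithelial cells, and Cyp1b1 from mesenchymal and vascular cells outside the liver. Tryptophan metabolites that bind the receptor accumulate in blood when the kidney fails.

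The core of the xenobiotic response element is GCGTG, which is CACGC when read on the opposite strand, and it was searched on both strands of the 300-base window around the start of Cyp1b1 in the RefSeq promoter table (build GRCr8). Of the 2 genes, Cyp1b1 had an entry there and Cyp1a1 did not. The start used there is that of a transcript, and it lies 638 bases downstream of the first base of RefSeq's whole gene entry. The core occurred 2 times, and the sequences around both matches are shown because the core is part of what the receptor complex is known to read. Each is written 5′ to 3′ on the forward strand with the core in capitals.
Cyp1b1, match on the opposite strand, chr6:21094472-21094500: cgtcccgcccctCACGCcccaccccttaa
Cyp1b1, match on the given strand, chr6:21094533-21094561: agtagagggatgGCGTGtcgcctctgggg
The first base of the opposite strand match lies at position -81 and that of the given strand match at -20, counted from that transcript start. The longer form TNGCGTG matched 1 time, at -22, and overlaps the second sequence. At least 1 GCGTG was held by 9939 of 33469 RefSeq promoters of this length (29.7%), at least 2 by 3425 (10.2%), and TNGCGTG by 1637 (4.89%). A match describes letters in the window and shows no binding.

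Deposited counts were estimated per gene. An SNx library held 19210434 to 30784070 of them (median 22709319) and a NoOp library 30454170 to 43876369 (median 32745316), so the SNx libraries held fewer counts, with an overlap between the groups. Levels are CPM, a gene's counts scaled to a common library total, after TMM scaling had corrected those totals for differences in composition. On the log2 scale a prior count of 2 was added. CPM does not correct for gene length, so levels of different genes are not set against each other here. No pair of libraries in a group was identical. The 18 named proximal tubule markers had all passed the filter on counts. That none was at 0 follows from the filter and is no check of the kidney label.

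Cyp1a1 RNA was lower in each of the 12 SNx kidneys than in any NoOp kidney. The NoOp libraries stood at 106.5, 69.4, 68.7, 93.6 and 102 CPM (NoOp 1 to NoOp 5). The SNx libraries were widely spread. SNx 3 held 14.03 CPM, SNx 4 held 13.5, SNx 9 held 13.2 and SNx 11 held 10.1. SNx 12 was intermediate at 5.29, and SNx 2 at 2.57. Below them were 1.18 for SNx 5, 0.862 for SNx 1, 0.737 for SNx 6, 0.637 for SNx 7, 0.624 for SNx 10 and 0.392 CPM for SNx 8. SNx 3, 4, 9 and 11 were high within SNx, and the groups did not overlap, with 2.29 log2 units between the highest SNx and the lowest NoOp library. Mean log2 CPM of Cyp1a1 stood at 1.36 ± 1.94 for the SNx kidneys (SD, n = 12) and at 6.44 ± 0.30 for the NoOp kidneys (SD, n = 5), which differ by -5.08. The ratio of mean counts in the edgeR fit over all genes was smaller, because it leans on the libraries with most counts. It was a log2 fold change of -4.04 (standard error 0.68), or 16.5-fold lower in SNx. Of the genes averaging 1 log2 CPM or more, 2 had a lower log2 fold change than Cyp1a1.

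The low SNx values rest on few reads. SNx 8 held 9 estimated counts of Cyp1a1 and SNx 10 held 13, against 439 in SNx 3 and between 1996 and 3620 in the NoOp libraries. The exact Poisson 95% interval, which covers counting error only, was 0.179 to 0.745 CPM for SNx 8, 0.511 to 1.36 for SNx 1 and 0.783 to 1.70 for SNx 5. Neighbours at the low end therefore did not differ beyond counting error. The intervals of 1.99 to 3.27 for SNx 2, 4.41 to 6.27 for SNx 12 and 12.8 to 15.4 for SNx 3 did not overlap one another. In the order of the levels, the widest steps within SNx lay between SNx 2 and SNx 5 (1.08 log2 units), between SNx 12 and SNx 2 (1.02) and between SNx 11 and SNx 12 (0.92).

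Cyp1b1 RNA was higher in each of the 12 SNx kidneys than in any NoOp kidney. The NoOp libraries held 1.67, 0.834, 1.33, 1.58 and 1.71 CPM (NoOp 1 to NoOp 5), from 24 to 61 counts. SNx 1 held 43.9 CPM, SNx 9 held 20.5 and SNx 3 held 16.8. Next were 14.6 for SNx 2, 13.7 for SNx 7, 13.1 for SNx 12, 12.2 for SNx 5 and 10.04 CPM for SNx 11. The lowest were 9.83 for SNx 6, 9.36 for SNx 4, 9.02 for SNx 10 and 6.19 CPM for SNx 8. SNx 1 stood above the rest, the other 11 libraries formed a graded series, and a gap of 1.81 log2 units separated the lowest SNx from the highest NoOp library. Mean log2 CPM of Cyp1b1 stood at 3.72 ± 0.71 for the SNx kidneys (SD, n = 12) and at 0.54 ± 0.40 for the NoOp kidneys (SD, n = 5), which differ by 3.17. The log2 fold change of mean counts was 3.38 (standard error 0.43), or 10.4-fold higher in SNx. In the same set of genes, 57 had a higher log2 fold change.

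In this comparison 58.0% of the 15438 tested genes passed an FDR of 0.05 in edgeR's quasi-likelihood test, 30.3% higher and 27.7% lower in SNx. All 12 SNx libraries lay above all 5 NoOp libraries for 13.5% of tested genes and below them for 9.60%. Cyp1b1 is 1 of the first and Cyp1a1 1 of the second, and the genes were picked on this contrast, so nothing is read from those shares.

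**Figure D1:**
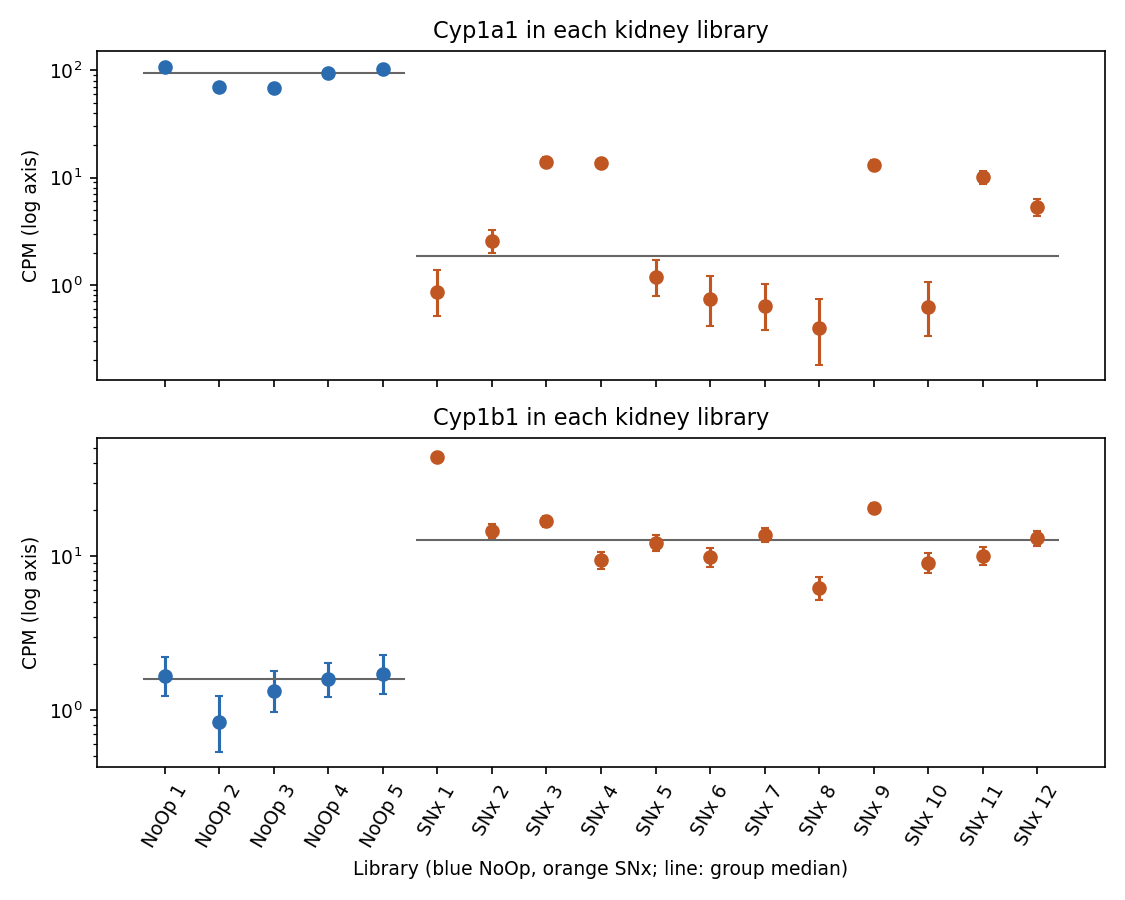
Level of Cyp1a1 (top) and Cyp1b1 (bottom) in each kidney library (CPM, log axis; blue NoOp, orange SNx), with exact Poisson 95% intervals as bars, which cover counting error only, and a line at each group's median. The Cyp1a1 medians are 1.87 CPM in SNx and 93.6 in NoOp, those of Cyp1b1 are 12.6 and 1.58, and the groups do not overlap for either gene.

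The spread within SNx was larger for Cyp1a1 than for Cyp1b1. From lowest to highest SNx library Cyp1a1 differed 35.8-fold and Cyp1b1 7.10-fold, against 1.55-fold and 2.05-fold among the NoOp libraries. Without SNx 8 the spread of Cyp1a1 was 22.5-fold, and that of Cyp1b1 was 3.31-fold without SNx 1 and 4.87-fold without SNx 8. The SD of log2 CPM over the SNx libraries placed Cyp1a1 at rank 79 of 13185 genes averaging 1 log2 CPM or more and Cyp1b1 at rank 921, where the median gene had an SD of 0.26. Part of the spread of a gene with few counts is counting error.

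Cyp1b1 minus Cyp1a1 in log2 CPM within a library restates these levels for each animal, and its separation between the groups follows from theirs. This difference ran from -6.26 to -5.61 in the NoOp libraries. Among the operated kidneys it was highest at 5.55 for SNx 1, and it lay at 4.27 for SNx 7, 3.75 for SNx 8, 3.70 for SNx 10, 3.61 for SNx 6 and 3.29 for SNx 5. It was smaller at 2.48 for SNx 2, 1.29 for SNx 12, 0.64 for SNx 9, 0.26 for SNx 3, -0.01 for SNx 11 and -0.53 for SNx 4. Only changes between libraries can be read from it, since the lengths of the genes differ.

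Among the SNx kidneys the relation of the 2 genes depended on which libraries entered. Pearson's r between the log2 CPM of Cyp1a1 and Cyp1b1 was 0.149 and Spearman's rho 0.427 over 12 libraries, given as a description. The r was -0.284 (rho 0.029) in the 6 SNx libraries with the lower title numbers and 0.647 (rho 0.771) in the 6 with the higher ones. Without SNx 1 the r was 0.533, and without SNx 8 it was -0.049. Ranked from the highest level, SNx 3 and SNx 9 had ranks 1 and 3 for Cyp1a1 and ranks 3 and 2 for Cyp1b1. SNx 8 was lowest in both. SNx 1 had rank 1 for Cyp1b1 and rank 8 for Cyp1a1, and SNx 4 rank 2 for Cyp1a1 and rank 10 for Cyp1b1.

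**Figure D2:**
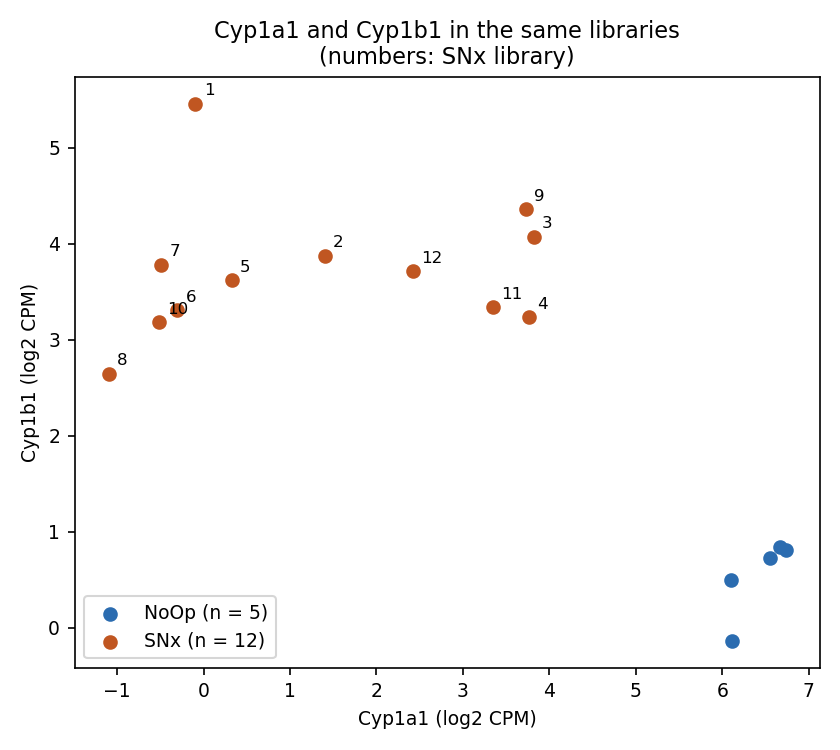
Cyp1b1 (vertical axis, log2 CPM) against Cyp1a1 (horizontal axis, log2 CPM), 1 point per library, with numbers naming the SNx libraries. The 5 NoOp libraries lie apart at high Cyp1a1 and low Cyp1b1, while over the 12 SNx libraries r is 0.149.

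Each gene was set against 5 measures of the SNx kidneys to see what varied with it. The measures were the log2 CPM of Lcn2, a secreted protein released by injured tubules, of Col3a1, a fibrillar collagen of scar tissue, and of Slc3a1, a cystine transporter subunit of the proximal tubule, together with the first principal component of all other tested genes and the total count. Between the groups Lcn2 had a log2 fold change of 5.06, Col3a1 of 2.74 and Slc3a1 of -1.73. The principal component, computed without Cyp1a1 and Cyp1b1 on the SNx libraries alone, held 48.4% of the variance and was signed to rise with Slc3a1. P-values are from two-sided permutation tests with 100000 permutations over 12 libraries, adjusted over the 10 relations. Both genes were chosen with earlier results of these data known. These p-values, and those for the number ranges below, therefore describe the data and are no independent test.

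Cyp1a1 was higher in SNx kidneys with more Slc3a1 (r = 0.726, permutation p = 0.009, adjusted p = 0.028, rho = 0.664). It rose in the same way with the first principal component (r = 0.738, permutation p = 0.0078, adjusted p = 0.028, rho = 0.594) and with the total count (r = 0.724, permutation p = 0.011, adjusted p = 0.028, rho = 0.629). The rank correlations had adjusted permutation p = 0.12 for each of the 3. With the 2 libraries farthest from the median of the measure left out, r was 0.812 for Slc3a1 and 0.797 for the component (both without SNx 1 and SNx 5), and 0.546 for the total count (without SNx 3 and SNx 9). Leaving out any 1 SNx library kept r between 0.684 and 0.779 for Slc3a1 and between 0.685 and 0.814 for the component. The adjusted p rose above 0.05 without SNx 4 (r = 0.684 for Slc3a1 and 0.685 for the component), SNx 9 (0.687 and 0.7005), SNx 10 (0.706 and 0.713) and SNx 11 (0.690 and 0.7004). For the total count r stayed between 0.665 and 0.824, and the adjusted p rose above 0.05 without SNx 1 (r = 0.707), SNx 3 (0.665), SNx 4 (0.682), SNx 6 (0.698), SNx 9 (0.666) and SNx 10 (0.692). Depth thus moved with Cyp1a1 within SNx, and its part in the relations was not tested. Lcn2 ran the other way (r = -0.647, permutation p = 0.027, adjusted p = 0.053, rho = -0.531), and this relation did not pass after adjustment. Col3a1 had r = -0.036 with Cyp1a1 (permutation p = 0.92, adjusted p = 0.92).

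Cyp1b1 was higher in SNx kidneys with more Col3a1 (r = 0.854, permutation p = 0.0021, adjusted p = 0.021), with rho = 0.587 (adjusted permutation p = 0.12). That relation depended on which libraries entered. Without SNx 1, highest in both genes, and SNx 8, r was 0.259. SNx 9 had rank 2 for Cyp1b1 but Col3a1 at 9.25 log2 CPM, and without SNx 9 r was 0.976 (adjusted permutation p = 0.0003). Leaving out SNx 1 alone gave r = 0.608 (adjusted permutation p = 0.077) and leaving out SNx 8 alone gave r = 0.810 (adjusted permutation p = 0.053). Its r was 0.233 with Lcn2, -0.321 with Slc3a1, -0.291 with the component and 0.086 with the total count, with adjusted permutation p of 0.6, 0.52, 0.52 and 0.89. SNx 1 decided these values too, since without it they were -0.121, 0.305, 0.338 and 0.659, with adjusted permutation p of 0.72, 0.45, 0.45 and 0.067.

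**Figure D3:**
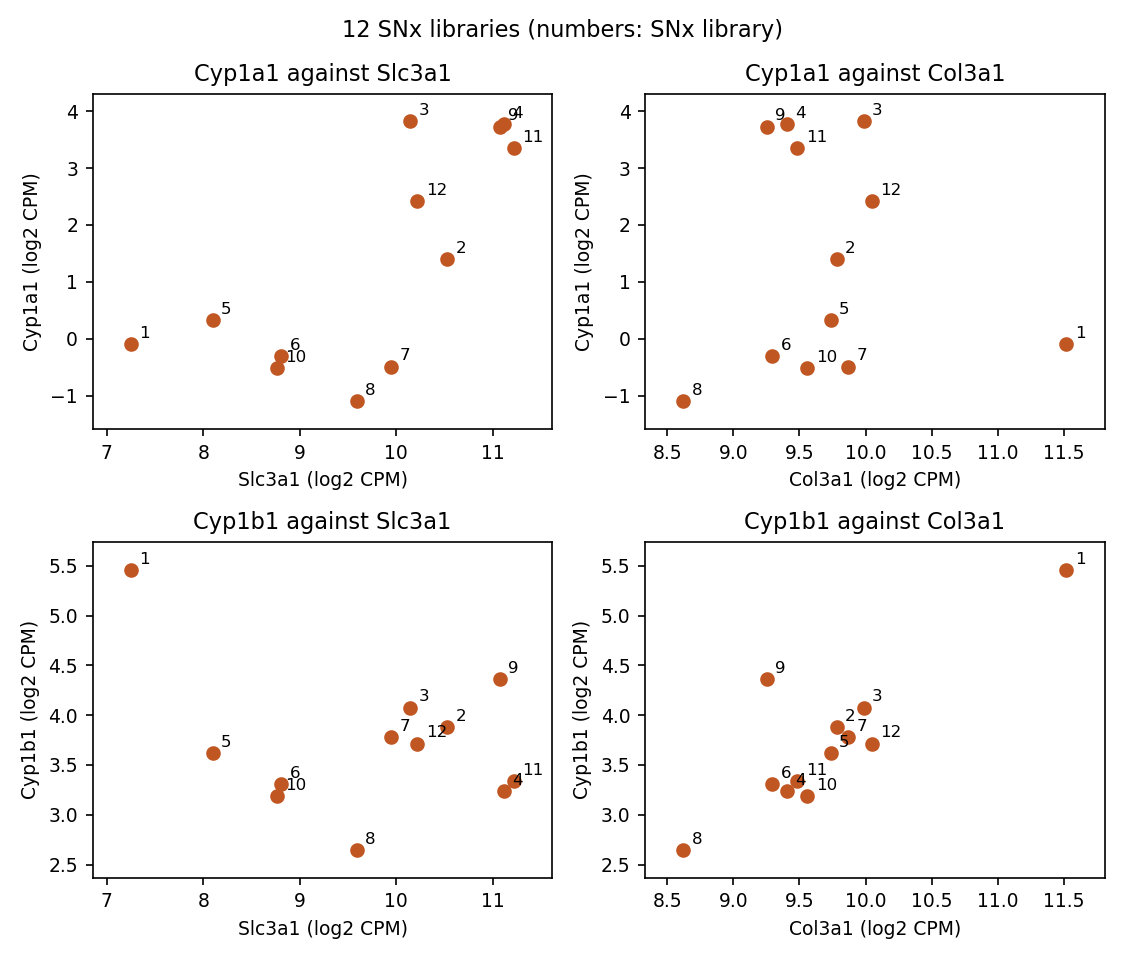
Log2 CPM of Cyp1a1 (top) and Cyp1b1 (bottom) in the 12 SNx libraries against Slc3a1 (left) and Col3a1 (right), 1 numbered point per library. Cyp1a1 rises with Slc3a1 (r = 0.726). The relation of Cyp1b1 with Col3a1 (r = 0.854) has r = 0.259 without SNx 1 and SNx 8 at its ends and 0.976 without SNx 9.

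The numbers in the sample titles fall into a lower and an upper range, with 6 SNx libraries in each and the 5 controls in the lower range. What the ranges stand for is not given. Cyp1a1 had a mean log2 CPM of 1.49 ± 1.88 in the lower and 1.23 ± 2.17 in the upper range (SD, n = 6 each; two-sided exact permutation test over all splits into 6 and 6, p = 0.829). Cyp1b1 had 3.93 ± 0.82 and 3.505 ± 0.59 (SD, n = 6 each; two-sided exact permutation test, p = 0.357, adjusted p = 0.714 over both genes). Against NoOp the log2 fold changes were -3.96 and -4.11 for Cyp1a1 and 3.64 and 3.09 for Cyp1b1 in the lower and upper range. Their directions follow from the choice of the genes and from groups that do not overlap, so they are a description. Within the ranges the r of Cyp1a1 was 0.811 and 0.870 with Slc3a1, 0.833 and 0.824 with the component, 0.964 and 0.493 with the total count and -0.920 and -0.525 with Lcn2. That of Cyp1b1 with Col3a1 was 0.991 and 0.5004, the first of them with SNx 1 among its 6 libraries. Its r changed sign between the lower and the upper range for Lcn2 (0.344 and -0.317), Slc3a1 (-0.593 and 0.551), the component (-0.5997 and 0.5996) and the total count (-0.340 and 0.814).

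The genes most like each member over the 12 SNx kidneys were then sought. Likeness is Pearson's r of log2 CPM over the 12 SNx libraries, taken from 1897 tested genes with a symbol that averaged 1 log2 CPM or more, and it is a description. Of the tested genes with a symbol 94.0% passed between the groups, 53.4% higher and 40.5% lower in SNx, so nothing is read from the directions given beside these genes. Closest to Cyp1a1 were Elovl1, an elongase of long-chain fatty acids (r = 0.953, rho = 0.832), Akap2, an anchor for protein kinase A (r = 0.8998), Fam13a (r = 0.879), Slc22a18, an organic cation transporter-like protein (r = 0.859), and Susd2 (r = 0.857). Leaving out any 1 SNx library kept Elovl1 between 0.945 and 0.960. All 5 were lower in SNx than in NoOp, with log2 fold changes from -1.30 to -0.90. Furthest from Cyp1a1 were Rnf122, a RING finger ubiquitin ligase (r = -0.908), Tpcn2, an ion channel of endosomes and lysosomes (r = -0.901), Syt11, a synaptotagmin (r = -0.882), Pde7a, a cAMP phosphodiesterase (r = -0.875), and Kcnj5, a potassium channel (r = -0.854), each higher in SNx with log2 fold changes from 0.67 to 1.40. Of 13184 genes with or without a symbol, 218 had r above 0.8 with Cyp1a1 and 303 below -0.8, and the median r was 0.044.

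Closest to Cyp1b1 was Col6a1, a chain of type VI collagen that is also on the fibroblast list below, with r = 0.932 (rho = 0.895), followed by Fkbp10, a chaperone of procollagen folding, with r = 0.927 (rho = 0.937). Pald1, a phosphatase-like protein of endothelium, had r = 0.923, Pdlim1, a cytoskeletal adaptor, r = 0.898 and Lox, the enzyme that cross-links collagen, r = 0.897. Without SNx 1 these values lay lower, with 0.823 for Col6a1, 0.852 for Fkbp10 and 0.819 for Lox. All 5 were higher in SNx, with log2 fold changes from 0.92 for Pald1 to 1.93 for Col6a1. The lowest values were those of Wdr72 (r = -0.854), Ntn4 (r = -0.797), Wwc2 (r = -0.768), Gpc3 (r = -0.739) and Lrrc75b (r = -0.737), and without SNx 1 the r of Wdr72 was -0.592 and that of Lrrc75b -0.417. Their directions between the groups were mixed, with Ntn4 higher in SNx (log2 fold change 0.54), Wwc2 (-0.44) and Lrrc75b (-0.54) lower, and Gpc3 (0.43, adjusted p = 0.077) and Wdr72 (-0.04, adjusted p = 0.71) not passing in edgeR's quasi-likelihood test. For Cyp1b1, 135 of the 13184 genes had r above 0.8 and 29 below -0.8, with a median r of -0.103.

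Other genes of the same pathways were read from fixed lists, as far as their identifiers could be named. Symbols came from a study list of transcripts that held 2007 genes, of which 2003 were tested. That list is rich in changed genes, since 94.0% of its tested members passed, 53.4% higher and 40.5% lower in SNx, and its median log2 fold change was 0.49 against 0.02 over all tested genes. Of its tested members 41.9% lay higher in every SNx than in any NoOp library, and 26.7% lower. Counts of list members below, both of calls and of groups that do not overlap, are therefore to be read against these shares. They show nothing particular to a list. For the 9 lists between 7.69% and 75% of members had an identifier. The test was edgeR's quasi-likelihood test with Benjamini-Hochberg adjustment over 15438 genes, in 12 SNx and 5 NoOp libraries.

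Of 20 genes on the AhR list, 3 could be named, and neither the receptor nor its partner was among them. The 3 rose, with a median log2 fold change of 1.31. Lpcat2, a phospholipid remodelling enzyme, rose by 1.65 (standard error 0.14, adjusted p = 2.2e-07), Relb, an NF-kappaB subunit that can pair with the receptor, by 1.31 (standard error 0.15, adjusted p = 4.1e-06), and Slc7a5, a transporter of tryptophan and other large amino acids, by 0.96 (standard error 0.18, adjusted p = 0.00036). Each lay higher in all SNx than in all NoOp libraries, as Cyp1b1 did and Cyp1a1 did not. Among tested genes with a symbol, 41.9% lay wholly higher in SNx and 26.7% wholly lower. In CPM the 3 genes summed to between 52.0 and 92.9 in SNx (median 72.6) and between 28.2 and 31.9 in NoOp (median 29.3).

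The kynurenine pathway breaks down tryptophan and yields metabolites that bind the receptor. Of 13 genes on its list 7 could be named, and these 7 fell (median log2 fold change -1.46), and 4 of them lay below NoOp in every SNx library. Afmid, the formamidase that releases kynurenine, fell by 1.34 (adjusted p = 0.0017), Qprt, which makes the NAD precursor from quinolinate, fell by 1.54 (adjusted p = 0.0036) and Kyat1, a kynurenine aminotransferase, fell by 1.32 (adjusted p = 0.0057). Calls for Kyat3 and Acmsd were fragile, passing in 6 and 5 of the 17 fits that left out 1 library each.

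Of the other P450 list, 6 of 44 genes were named, 5 lower and 1 higher. The 5 lower genes were Cyp8b1, Cyp2d2, Cyp2d4, Cyp2e1 and Cyp4a1. Cyp8b1, a sterol hydroxylase of bile acid synthesis, fell by 3.84 in log2 (adjusted p = 0.00023, standard error 0.68). The size and the p are not read further, because 10 of 12 SNx libraries held 3 counts or fewer. The NoOp libraries held between 24 and 127, so Cyp8b1 passed the filter through NoOp alone. Cyp8b1 was not tested when every library had to hold at least 10 counts. Its log2 fold change was -4.81 without SNx 4 and -3.24 without NoOp 5. Cyp2d4 fell by 1.57 (adjusted p = 0.00073). Reads of the related Cyp2d genes may be uncertain, which was not checked. Cyp2e1, an enzyme of ethanol oxidation, passed in 8 of the 17 fits with 1 library left out. Cyb5r1, a cytochrome b5 reductase and not itself a P450, rose by 0.40 (adjusted p = 0.00026).

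Conjugation and hydrolysis are the next steps of detoxification. Of that list 11 of 30 genes were named, with 6 lower, 1 higher and 4 not passing. Mgst3, a microsomal glutathione transferase, fell by 1.39 (adjusted p = 0.00051) and Gstt2, a cytosolic one, fell by 1.12 (adjusted p = 0.0025). Gstm1 rose by 1.03 (adjusted p = 0.00016), from a median of 13.1 CPM in NoOp to 25.5 in SNx. Its family holds related genes and its reads may be uncertain, which was not checked. All 5 named flavin-containing monooxygenases and oxidases of 9 fell and lay below NoOp in every SNx library. Fmo5 fell by 1.01 (adjusted p = 4.5e-05), Fmo2 fell by 1.58 (adjusted p = 0.00011) and Fmo1 fell by 1.81 (adjusted p = 0.0062). These enzymes oxidise nitrogen and sulphur in drugs and dietary amines.

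**Figure D4:**
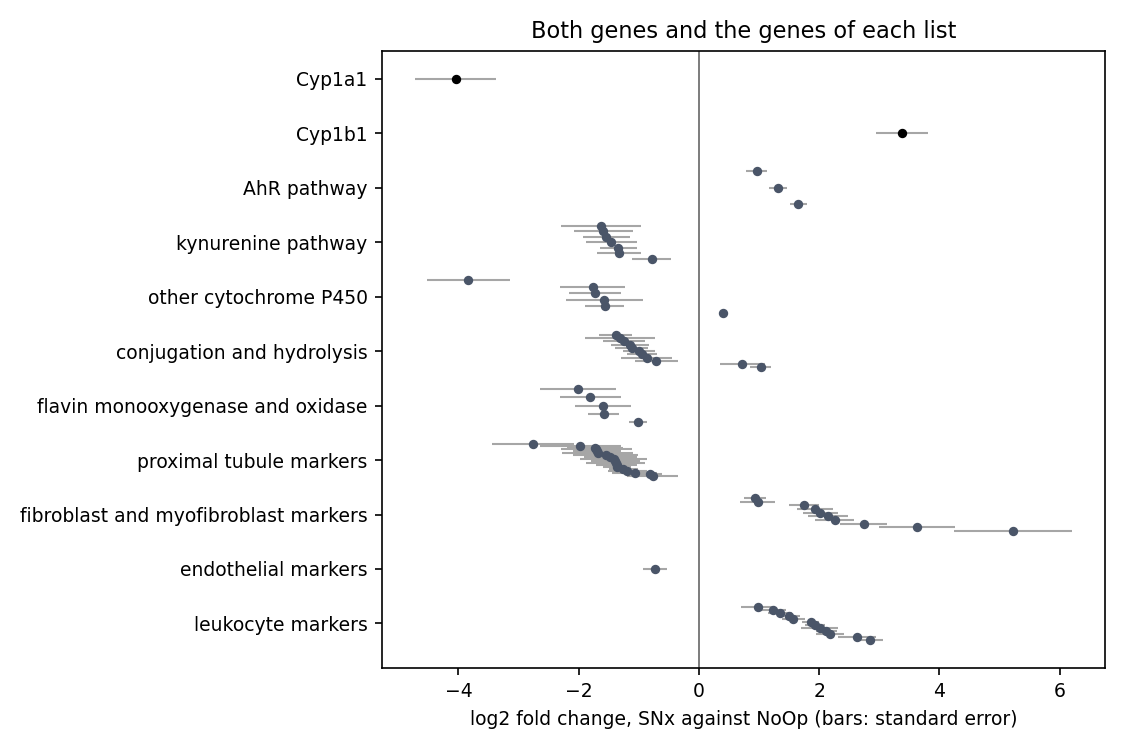
Log2 fold change of SNx against NoOp (horizontal axis) for Cyp1a1, for Cyp1b1 and for each named gene of the 9 lists (rows), 1 point per gene with its standard error as a bar and a line at 0. The kynurenine, monooxygenase and proximal tubule genes lie left of 0 and the AhR, fibroblast and leukocyte genes right of it.

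Between the groups, proximal tubule markers moved in the direction of Cyp1a1, and fibroblast and leukocyte markers in that of Cyp1b1. In bulk tissue, fewer cells of a type and less RNA per cell cannot be told apart. Of 24 proximal tubule markers 18 were named and 17 fell, with Slc17a1 not passing and a median log2 fold change of -1.41. Slc34a1, the phosphate transporter of the brush border, passed in 10 of the 17 fits that left out 1 library each, and between 15 and 17 of the markers passed in those fits. Dpp4, a brush border peptidase, fell by 1.25 (adjusted p = 0.0004), and Aqp1, a water channel, fell by 1.69 (adjusted p = 0.0019). With the 6 SNx libraries of the lower number range against NoOp, 10 of the 18 passed the test, while the summed level of each of those libraries still lay below every NoOp sum. The 18 markers, with Lrp2 giving the largest part of the summed CPM (which is not corrected for length), summed to between 36245 and 50670 CPM in NoOp (median 41908). Among the operated kidneys the sum was 2727 for SNx 1, 5449 for SNx 10, 5517 for SNx 5, 7567 for SNx 6 and 8519 for SNx 8. It was 15054 for SNx 7, 16030 for SNx 12 and 19609 for SNx 2, and highest at 19748 for SNx 3, 22007 for SNx 9, 26610 for SNx 4 and 27278 for SNx 11. The 4 SNx kidneys with most Cyp1a1 thus had the 4 highest sums. The sum of SNx 3 was close to that of SNx 2, with Cyp1a1 at 14.03 and 2.57 CPM. SNx 7 and SNx 12 had sums near each other with Cyp1a1 at 0.637 and 5.29 CPM.

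Fibroblast and leukocyte markers shared the direction of Cyp1b1 between the groups. Each of the 10 named fibroblast and myofibroblast markers of 20 rose, the median log2 fold change being 2.09, with 8 of them higher in every SNx than in any NoOp library. Col3a1 rose by 2.74 (adjusted p = 2.8e-05), Col5a2 by 1.75 (adjusted p = 2.9e-05) and Fn1, fibronectin, by 2.02 (adjusted p = 3.2e-05). Their summed CPM had its largest part from Col1a1 in the SNx mean and from Fn1 in the NoOp mean. It was between 709 and 840 CPM in NoOp and between 2144 and 4436 in 11 SNx libraries. SNx 1, the library highest in Cyp1b1, had 13354. SNx 9, with rank 2 for Cyp1b1, had a sum of 2691, and SNx 5, with a sum of 4436, had rank 7 for Cyp1b1. All 12 named leukocyte markers of 20 rose, with a median of 1.90. Mrc1, a macrophage mannose receptor, rose by 2.85 (adjusted p = 9.6e-08), Laptm5, a lysosomal protein of blood cells, by 1.86 (adjusted p = 1.5e-07) and Lcp1, an actin bundler of leukocytes, by 1.93 (adjusted p = 2.2e-07). Their summed CPM, with the largest part from Csf1r, was between 135 and 217 CPM in NoOp and between 440.5 and 858 in SNx. Of 13 endothelial markers 1 was named, Ehd3, a glomerular endothelial gene, which fell by 0.73 (adjusted p = 0.0041).

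The levels can also be written per marker sum. This description was added after the data had been seen and uses the levels the genes were picked on, so it tests no cause. Log2 Cyp1a1 minus the log2 sum of the proximal tubule markers averaged -12.18 ± 1.31 over the SNx kidneys (SD, n = 12) and -8.94 ± 0.41 over the NoOp kidneys (SD, n = 5), which differ by -3.24. The highest SNx value was -10.45 and the lowest NoOp value -9.51. Log2 Cyp1b1 minus the fibroblast sum was -8.09 ± 0.40 and -9.05 ± 0.47, a difference of 0.96, with the lowest SNx value at -8.54 and the highest NoOp value at -8.63. Against the leukocyte sum the difference was 1.41. The markers' part in the movement of either gene was not tested.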

How the data were processed

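Per the labels and the study's methods, ribosomal RNA was depleted and strand-specific paired-end libraries were made, although the labels give the molecule as polyA RNA. The submitters' processing notes name Salmon and limma without versions. The authors quantified reads against the Rn6 transcriptome and used tximport to obtain gene values. They deposited estimated counts, all whole, in 1 table per library. The authors also deposited log2 values after voom for 13318 genes (limma alternative here). Tables of the whole series repeat these values in 34 columns, which were left aside.

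Counts were rounded (0 values changed), filtered with filterByExpr, scaled with TMM and tested with the quasi-likelihood test of edgeR 4.0.16 in R 4.3.3, two-sided, at an FDR of 0.05 (Benjamini-Hochberg, 15438 genes). Both Cyp1a1 and Cyp1b1 passed the filter. One library came from each rat, so p-values measure the spread between rats. Correlations and permutation tests were run in Python 3.11.15 with scipy 1.17.1. Tests were tried on simulated data. Study 1 was not analysed here.

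Named genes were Cyp1a1, Cyp1b1, Lcn2, Col3a1 and Slc3a1, the 3 called members with the smallest p of each list and any that moved against it, and the 5 genes with the highest and lowest correlation with each member. Fragile calls (Kyat3, Acmsd, Cyp2e1, Slc34a1), list genes called beside them and the markers with most of a summed level were named after their values were seen. One gene that this rule names is not reported here. The members and lists were chosen with earlier results of these data known. Symbols came from the study's supplementary transcript sheets, used here in part. Fold changes and counts of calls were recomputed with DESeq2 1.42.0, with limma 3.58.1 on voom weights or on the deposited log2 values, without TMM (RLE or plain library size), with all genes or only those holding 10 counts in every library, without each library in turn and within either number range. Correlations were recomputed with a prior count of 0.5, without TMM, on the deposited log2 values, without each SNx library and within either range, and differences between the ranges likewise apart from the last. Levels per marker sum were computed in 1 way.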

Additional observations from a re-analysis of the deposited data

Results flagged for a closer look

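For each gene of the lists and each other gene named here, the 5 NoOp libraries, and for Cyp1a1 and Cyp1b1 also the 6 SNx libraries of each number range, were searched for a library far from the rest, taking its gap to the nearest other library as a share of the group's range. Of 98 groups, 6 held one, and chance gives about 1 in 20, or 4.9. Neither Cyp1a1 nor Cyp1b1 was among them. NoOp 5 stood low in 5 of the 6, for Kyat3 (share 0.752, 2.53 log2 CPM against 3.17 to 3.39), Ptprc (0.711, 2.85 against 3.87 to 4.28), Adgre1 (0.7605, 2.71 against 3.53 to 3.79), Aif1 (0.836, 1.75 against 2.74 to 2.94) and Lcp1 (0.730, 4.43 against 4.96 to 5.16). Ptprc, Adgre1, Aif1 and Lcp1 are leukocyte markers. Without NoOp 5 their log2 fold changes were 2.01, 0.84, 1.19 and 1.83, and that of Kyat3 was -0.92. The remaining gene was Aqp1, low in NoOp 1 (0.719, 10.99 against 11.49 to 11.68).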

How the results depend on the processing

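Of 541 values recomputed under the alternatives, 496 kept direction and side of the threshold, or stayed within 1.5 times for counts, and 19 changed sign. A further 22, all among the relations that passed over the 12 SNx libraries, no longer passed. The total includes fold changes of Cyp1a1 and Cyp1b1, whose directions followed from their choice. The share that kept its label is therefore no measure of how steady those relations are. The log2 fold change of Cyp1a1 lay between -5.12 and -3.88 over the tools, scalings and filters, and between -4.28 and -3.93 with any 1 library left out. That of Cyp1b1 lay between 3.23 and 3.60, and between 3.11 and 3.46. With at least 10 counts required in every library Cyp1a1 was not tested, since SNx 8 held 9. Scaling by library size alone shifted the median over all genes from a log2 fold change of 0.02 to 0.23, and of 9447 genes called then 7044 were higher, against 4672 of 8949 with TMM. Changes are to be read relative to those medians.

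Counts of calls moved in 1 case, the proximal tubule markers, with 10 called in the SNx libraries of the lower number range against 17. The relation of Cyp1a1 with Lcn2 passed with library size alone (r = -0.658, adjusted permutation p = 0.047) and on the deposited log2 values (r = -0.656, adjusted permutation p = 0.049), and with 1 library left out it ran from -0.773 to -0.572, passing without SNx 7 (r = -0.773, adjusted permutation p = 0.014). Within a number range of 6 libraries the relations of Cyp1a1 with Slc3a1 (r = 0.811 in the lower and 0.870 in the upper range) and with the component (r = 0.833 and 0.824) did not pass, nor did that with the total count (r = 0.493) or that of Cyp1b1 with Col3a1 (r = 0.5004) in the upper range. With 1 library left out, r ran from 0.684 to 0.779 for Slc3a1, from 0.685 to 0.814 for the component, from 0.665 to 0.824 for the total count and from 0.608 to 0.976 for Cyp1b1 with Col3a1. Fewer libraries raise the p that an r of a given size reaches. The 19 changes of sign lay among relations and differences that did not pass in these settings, or, between Cyp1a1 and Cyp1b1, were not tested. In the upper range r became 0.239 for Cyp1a1 with Col3a1, and for Cyp1b1 -0.317 with Lcn2, 0.551 with Slc3a1 and 0.5996 with the component. In the lower range it became -0.340 for Cyp1b1 with the total count and -0.284 between Cyp1a1 and Cyp1b1. With 1 library left out, r ran from -0.295 to 0.288 for Cyp1a1 with Col3a1, and for Cyp1b1 from -0.121 to 0.336 with Lcn2, -0.461 to 0.305 with Slc3a1, -0.428 to 0.338 with the component and -0.067 to 0.659 with the total count. It ran from -0.049 to 0.533 between Cyp1a1 and Cyp1b1, and the difference of Cyp1a1 between the number ranges from -0.21 to 0.75 log2 units. No paired analysis was possible because the labels give no replicate numbers shared between SNx and NoOp.

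Depth limits Cyp1a1 in the SNx libraries with few counts, where the order of neighbours is not resolved, and Cyp1b1 in NoOp. The controls lie in 1 number range, the SNx kidneys at unknown stages, and most members of the pathway lists had no identifier to name them by.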
